A study of Mus musculus with 9 samples.

Results

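Genes of DNA replication and nucleotide supply were described in bone marrow mononuclear cells of B6.SJL (CD45.1) mice that received the MLL-AF9 fusion or empty vectors. The list of 36 genes covers the replicative helicase, origin licensing, polymerases, the sliding clamp and its loader, single-strand binding, chromatin assembly and the supply of deoxynucleotides. Members were the rows of the RNA table that carry a listed gene symbol, and 35 of the 36 were found among its 22942 rows. The missing one, Cdc45, an activator of the helicase, was not analysed here. The MLL-AF9 cells carried the retroviral vectors MSCVneo-MLL-AF9 and MSCVpuro, and the control cells carried MSCVneo and MSCVpuro without the fusion, so both groups share the strain, the transduction and both vector backbones. The fusion joins parts of the proteins MLL and AF9 and drives acute leukemia. PolyA RNA was sequenced from 3 samples per group. The labels do not say whether the samples came from separate animals, and they give no age of the mice and no time after transduction.

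Before S phase, the origin recognition complex with Cdc6 and Cdt1 loads the Mcm2 to Mcm7 ring onto DNA, and kinases, among them Cdk2 with cyclin E, then fire the origin. The ring, joined by Cdc45 and the GINS proteins, unwinds DNA. Polymerase alpha with primase starts each strand, polymerases delta and epsilon extend it on the PCNA ring, and Fen1 and Lig1 finish the lagging strand. Most of these genes are activated by E2F factors as cells enter S phase, and dividing marrow progenitors express them at high levels. Mature neutrophils no longer divide.

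The authors' deposited table holds 1 pooled value per group for each gene, taken as FPKM (fragments per length of transcript and per total of mapped fragments), with a p-value and a q-value. Spread between samples and depth are therefore unknown, and no value below has an error of its own. A gene was called when its q-value was under 0.05 and the mean of both groups was at least 1 FPKM. A log2 change is taken after adding 1 to each FPKM value, with MLL-AF9 cells over control cells, and a ratio is that of the FPKM values themselves.

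Nearly all replication genes had a higher value in MLL-AF9 cells, by a moderate factor, and none of the differences was called. Of the 35 members, 34 were higher in MLL-AF9 cells, or 31 to 32 when the groups were rescaled to a common median, distribution, upper quartile or sum. The exception was Ccne1, which encodes cyclin E1, joined after rescaling by Gins3, Rrm2 and, in all but 1 of these 4 scalings, Rfc2. The ratios ran from 0.975 for Ccne1 to 2.12 for Pola1, with a median of 1.48. The summed level of the 35 genes was 2205 FPKM in MLL-AF9 cells and 1498 FPKM in control cells. All 35 passed the minimum mean of 1 FPKM in both groups, where the lowest were Gins3 at 8.22 FPKM in MLL-AF9 cells and Pole at 6.59 FPKM in control cells.

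By the authors' deposited q-values, 0 members were called higher and 0 lower, whereas 5.13% of the 11538 expressed genes were called higher and 5.2% lower, or 10.3% in all. The smallest q-value among the members was 0.191 in the authors' deposited table, and the largest was 0.988. At an unadjusted p under 0.05 in the same table stood 1 member, Pola1, or 2.86% of the members, compared with 19.8% of the expressed genes. Adjusting the authors' p-values anew over the 11538 expressed genes, by the Benjamini-Hochberg method, also called 0 members, with 0.209 as the smallest adjusted value. A missed threshold does not show equal levels in the groups, and no interval can be given without values per sample.

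The whole transcriptome leaned the same way. A higher FPKM value in MLL-AF9 cells was seen for 97.1% of the members, compared with 68.7% of all expressed genes. The median log2 change was 0.55 over the members and 0.29 over expressed genes, and 31 of the 35 members lay above the median of expressed genes. A ratio of at least 1.5 was reached by 16 members, or 45.7%, compared with 33.5% of expressed genes. A ratio of at least 2 was reached by 1 member, Pola1, or 2.86%, compared with 15.1% of expressed genes. The members thus stood close together: their interquartile range of ratios was 1.34 to 1.73, and that of the 7477 expressed genes within the members' range of levels was 0.915 to 1.57. These shares describe the list and were not tested, because the members had been chosen with earlier results of these data known.

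**Figure D1:**
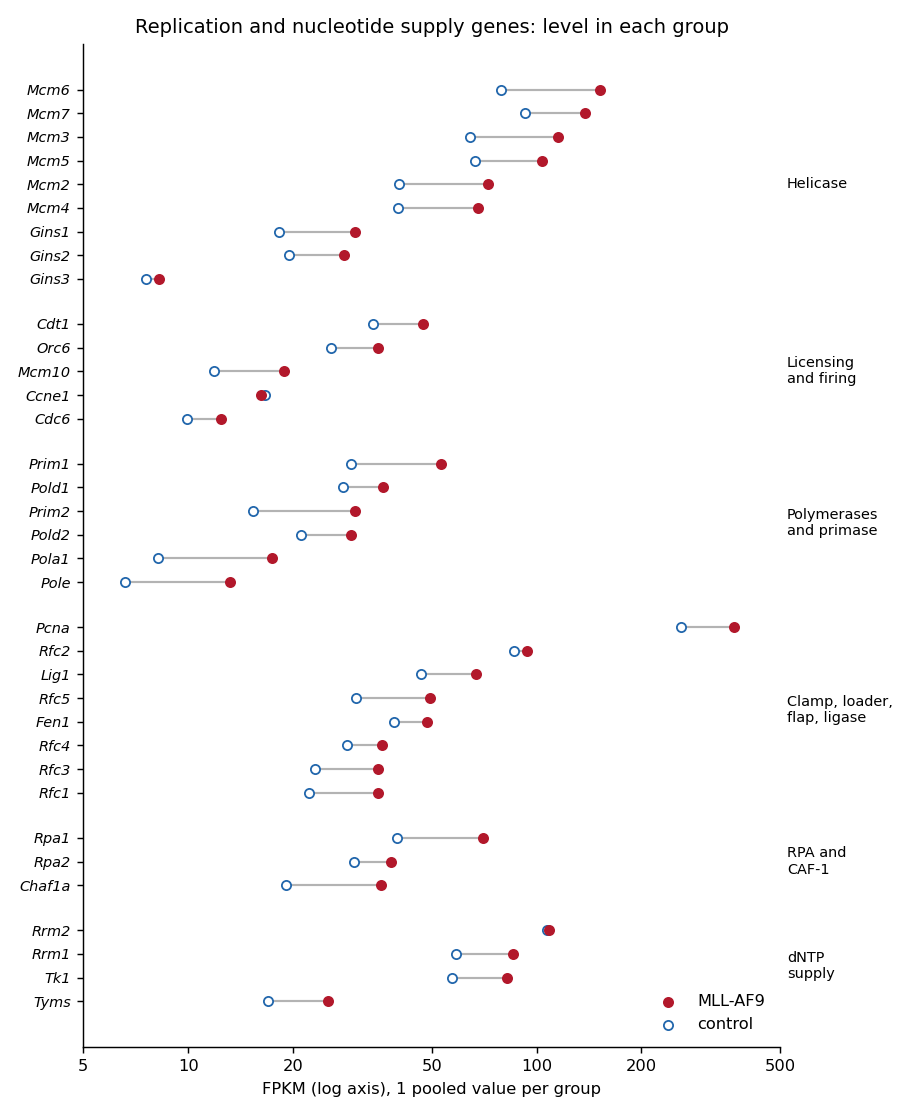
FPKM of each of the 35 matched genes (log axis) in MLL-AF9 cells (filled red) and control cells (open blue), 1 pooled value per group, ordered by role and by level. The red point lies to the right of the blue one for 34 genes, nearly touches it for Rrm2 (108 against 107 FPKM), and lies to its left for Ccne1 (16.2 against 16.6 FPKM); rescaling the groups leaves 31 to 32 genes higher.

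The size of the members' differences can be set beside the calls among all 7477 expressed genes within their range of mean levels. Ratios over 1 and up to 1.25 were found for 5 members, and 0 of 1598 genes with such ratios were called higher. Ratios over 1.25 and up to 1.5 were found for 13 members, and 0 of 1383 such genes were called. Calls began at a ratio of 1.53. Up to 1.75 there were 7 members, and 15 of 889 such genes were called. Up to 2 there were 8 members, with 28 of 474 such genes called, and up to 2.25 there was 1 member, with 20 of 247 called. Thus 18 of the 35 members had ratios between 1 and 1.5, at which no gene of their levels was called.

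**Figure D2:**
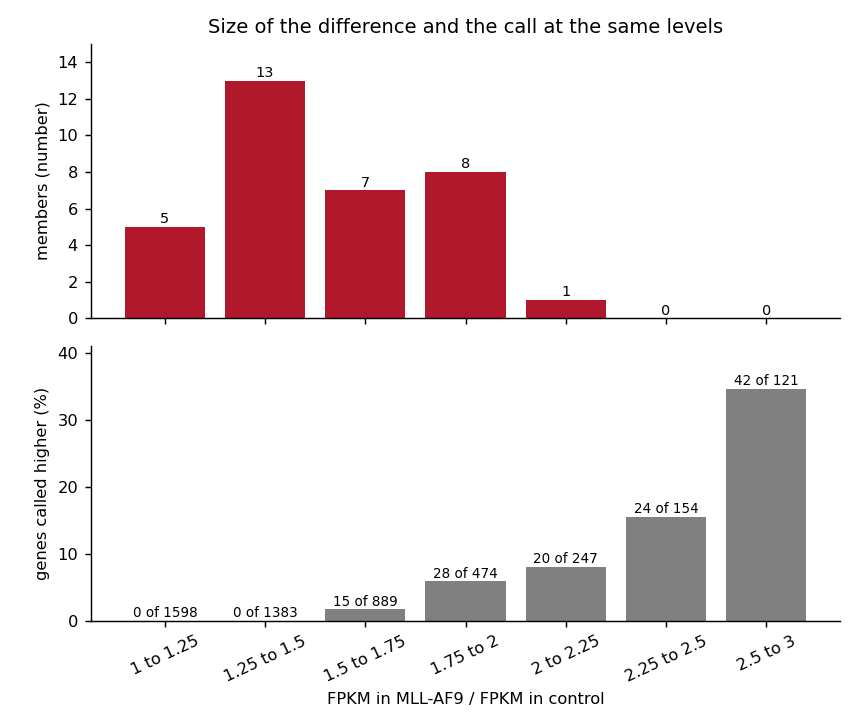
Top, number of members in each range of the FPKM ratio of MLL-AF9 over control; bottom, percent of all expressed genes in the members' range of levels that were called higher (q under 0.05 in the authors' deposited table), with the numbers above the bars. Ccne1, with a ratio under 1, is not drawn. The members lie at ratios where 0% to 8.10% of genes were called, and calls become frequent above 2.5, where no member lies.

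Promoter sequences were looked up as a planned description, because most replication genes are known E2F targets. RefSeq windows on build GRCm38.p6, from 250 bases before to 50 bases after the annotated start, were at hand for 29 of the 35 members, in 34 windows. They were searched on both strands for the E2F-type letters TTNNCGC, with GG, CC, GC or CG in place of NN, where overlapping matches were counted separately. At least 1 match was found in 61.8% of member windows, compared with 16.9% of 9457 windows of expressed genes and 9.57% of all 32851 windows. The median GC content was 60.7% in member windows and 60.3% in windows of expressed genes. CCAAT, the letters bound by NFY, stood in 58.8% of member windows, compared with 38.8% of windows of expressed genes, and the E-box letters CACGTG in 17.6% compared with 10.4%. Members with and without an E2F-type match had nearly the same median ratio, 1.46 for 19 genes with and 1.46 for 10 genes without. The median ratio was 1.56 for 19 members with CCAAT and 1.34 for 10 without, and 1.53 for 6 members with CACGTG and 1.44 for 23 without. Mcm4, Gins1, Gins2, Prim2, Pole and Rfc2 had no window and were in none of these splits. Their ratios ran from 1.09 for Rfc2 to 2.00 for Pole. None of these splits was tested. The windows of 4 genes are shown, each 5′ to 3′ on the minus strand of GRCm38.p6, with E2F-type matches in capitals: Mcm6 and Pola1, the helicase and polymerase genes with the largest ratios of their groups, then Pcna, the most abundant member, and Ccne1, the member that was not higher.
Mcm6, chr1:128359656-128359955: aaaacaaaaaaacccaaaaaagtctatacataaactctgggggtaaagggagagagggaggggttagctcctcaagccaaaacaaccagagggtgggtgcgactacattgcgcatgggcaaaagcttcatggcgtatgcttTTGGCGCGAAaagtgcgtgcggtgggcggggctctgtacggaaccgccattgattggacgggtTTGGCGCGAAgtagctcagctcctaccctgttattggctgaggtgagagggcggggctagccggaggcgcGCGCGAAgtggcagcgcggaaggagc
Pola1, chrX:93632106-93632405: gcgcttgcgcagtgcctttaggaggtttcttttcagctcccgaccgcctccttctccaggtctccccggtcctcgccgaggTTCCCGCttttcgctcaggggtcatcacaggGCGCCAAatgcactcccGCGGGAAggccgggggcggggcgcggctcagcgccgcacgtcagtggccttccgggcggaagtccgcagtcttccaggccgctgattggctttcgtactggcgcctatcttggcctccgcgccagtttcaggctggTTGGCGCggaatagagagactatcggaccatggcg
Pcna, chr2:132253131-132253430: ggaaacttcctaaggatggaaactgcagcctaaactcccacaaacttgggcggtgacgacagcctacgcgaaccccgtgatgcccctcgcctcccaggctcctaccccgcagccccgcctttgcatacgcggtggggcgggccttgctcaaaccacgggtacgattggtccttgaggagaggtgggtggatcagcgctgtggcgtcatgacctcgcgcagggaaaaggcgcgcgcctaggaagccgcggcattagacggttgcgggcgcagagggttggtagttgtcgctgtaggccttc
Ccne1, chr7:38107441-38107740: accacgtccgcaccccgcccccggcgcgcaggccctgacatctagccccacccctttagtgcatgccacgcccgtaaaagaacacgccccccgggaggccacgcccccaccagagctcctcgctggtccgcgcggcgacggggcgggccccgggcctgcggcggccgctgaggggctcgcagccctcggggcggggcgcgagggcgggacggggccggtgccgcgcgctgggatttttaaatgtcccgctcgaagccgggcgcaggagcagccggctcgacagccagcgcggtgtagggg
The Mcm6 window holds 5 matches, of which 4 overlap in pairs, and the Pola1 window holds 4. The Pcna and Ccne1 windows hold 0, which says only that these letters are not in these windows.

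All 9 matched helicase genes were higher in MLL-AF9 cells, 6 of them by a ratio of at least 1.5. Under rescaling of the groups Gins3 was lower. The ring subunits Mcm2 to Mcm7 averaged 108 FPKM in MLL-AF9 cells and 63.8 FPKM in control cells. Mcm6 had 152 FPKM in MLL-AF9 cells and 79.3 FPKM in control cells, a ratio of 1.92 (q = 0.321, the authors' deposited table). Mcm2 had 72.7 FPKM in MLL-AF9 cells and 40.2 FPKM in control cells, a ratio of 1.81. Mcm3 stood at 115 against 64.2 FPKM and Mcm4 at 67.8 against 40.0 FPKM. Mcm5 stood at 104 against 66.7 FPKM, and Mcm7, whose transcription unit also holds the microRNAs Mir25, Mir93 and Mir106b, at 137 against 92.5 FPKM. The 6 subunits work in equal numbers in the ring, and their transcript levels per length spanned a factor of 2.25 in MLL-AF9 and 2.31 in control cells. Mcm6 had the highest level of the 6 in MLL-AF9 cells, whereas Mcm7 had it in control cells.

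The GINS proteins bind the ring to form the active helicase. Gins1 had 30.1 FPKM in MLL-AF9 cells and 18.2 FPKM in control cells, a ratio of 1.66, and Gins2 had 28.0 against 19.5 FPKM, a ratio of 1.44. Gins3 was the lowest helicase gene, at 8.22 FPKM in MLL-AF9 cells and 7.58 FPKM in control cells (q = 0.945, the authors' deposited table). Its log2 change of 0.10 lay below the median of all expressed genes.

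Of 5 genes that license and fire origins, 4 were higher in MLL-AF9 cells. Their median ratio of 1.37 was the lowest of the 6 role groups. By summed level, the genes of deoxynucleotide supply had a smaller ratio, 1.26 against 1.32. Differences between role groups were not tested. Cdt1, the loading factor that geminin blocks after S phase has begun, had 47.1 FPKM in MLL-AF9 cells and 34.0 FPKM in control cells. Cdc6, the loading ATPase, had 12.4 FPKM in MLL-AF9 cells and 9.95 FPKM in control cells. Orc6, the smallest subunit of the origin recognition complex, stood at 35.2 against 25.6 FPKM (q = 0.475, the authors' deposited table). Mcm10, which acts as origins fire and is no part of the ring, stood at 18.8 against 11.9 FPKM, the largest ratio of this group at 1.59. Ccne1, the cyclin that activates Cdk2 at the start of S phase, had 16.2 FPKM in MLL-AF9 cells and 16.6 FPKM in control cells (q = 0.982, the authors' deposited table).

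The polymerase and primase genes among the members split into a higher and a lower set of ratios. Pola1, the catalytic subunit of polymerase alpha, had 17.4 FPKM in MLL-AF9 cells and 8.18 FPKM in control cells, a ratio of 2.12 (p = 0.0373 and q = 0.191, the authors' deposited table). Pole, the catalytic subunit of the leading-strand polymerase epsilon, had 13.2 FPKM in MLL-AF9 cells and 6.59 FPKM in control cells, a ratio of 2.00 (q = 0.243, the authors' deposited table). Prim1 and Prim2, the primase subunits that make the RNA primer, had ratios of 1.82 and 1.97, with 53.3 and 30.2 FPKM in MLL-AF9 against 29.3 and 15.3 FPKM in control cells. The polymerase delta subunits among the members had smaller ratios. The catalytic Pold1 stood at 36.2 FPKM in MLL-AF9 cells and 27.8 FPKM in control cells, a ratio of 1.30. The accessory Pold2 stood at 29.4 against 21.0 FPKM, a ratio of 1.40. Pold1 transcript per length was 2.75 times that of Pole in MLL-AF9 and 4.23 times in control cells. The split did not extend to all polymerase subunits outside the list. Pola2 had a ratio of 1.49, Pole2 of 2.21, Pole3 of 1.13 and Pole4 of 1.42. Pold3 had a ratio of 1.39 and Pold4 of 1.71.

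The clamp and clamp loader genes were all higher in MLL-AF9 cells, with a median ratio of 1.43 together with the flap nuclease and the ligase. Pcna, the ring that holds polymerases on DNA, was the most abundant of all members, at 369 FPKM in MLL-AF9 cells and 259 FPKM in control cells (q = 0.664, the authors' deposited table). Copies named after it, Pcna-ps1 and Pcna-ps2, are annotated in the mouse genome, and reads from them could not be told apart here. The loader subunits Rfc1, Rfc3, Rfc4 and Rfc5 stood between 35.1 and 49.5 FPKM in MLL-AF9 cells and between 22.3 and 30.3 FPKM in control cells. Rfc2 stood well above them, at 93.9 FPKM in MLL-AF9 cells and 85.9 FPKM in control cells, with a ratio of 1.09. Rfc5 had the largest ratio of the group, 1.63. Fen1, which trims the flaps of lagging-strand fragments, had 48.5 FPKM in MLL-AF9 cells and 39.0 FPKM in control cells. Lig1, the ligase that joins them, had 66.9 FPKM in MLL-AF9 cells and 46.5 FPKM in control cells.

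Rpa1 and Rpa2, which coat single-stranded DNA, differed in their ratios. Rpa1 had 70.4 FPKM in MLL-AF9 cells and 39.9 FPKM in control cells, a ratio of 1.77, and Rpa2 had 38.2 against 30.0 FPKM, a ratio of 1.27. Rpa3, which is not a member, had 51.7 against 49.6 FPKM, a ratio of 1.04. No spread is known, and the difference between these ratios was not tested. Chaf1a, the large subunit of the chromatin assembly factor that deposits histones behind the fork, had 35.7 FPKM in MLL-AF9 cells and 19.1 FPKM in control cells, a ratio of 1.87 (q = 0.309, the authors' deposited table).

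Among the genes of deoxynucleotide supply, Rrm2 was nearly equal in both groups. This regulatory subunit of ribonucleotide reductase, the enzyme that makes deoxynucleotides, had 108 FPKM in MLL-AF9 cells and 107 FPKM in control cells (q = 0.988, the authors' deposited table). Its large partner Rrm1 had 85.8 FPKM in MLL-AF9 cells and 58.8 FPKM in control cells, a ratio of 1.46. Rrm2 transcript per length was therefore 1.26 times that of Rrm1 in MLL-AF9 cells and 1.82 times in control cells. Tyms, which makes thymidylate, had 25.2 FPKM in MLL-AF9 cells and 16.9 FPKM in control cells, and an annotated copy, Tyms-ps, may share its reads. Tk1, the thymidine salvage kinase of S phase, had 82.3 FPKM in MLL-AF9 cells and 57.3 FPKM in control cells. The ratios of Rrm1, Tyms and Tk1 lay within 1.44 to 1.49.

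**Figure D3:**
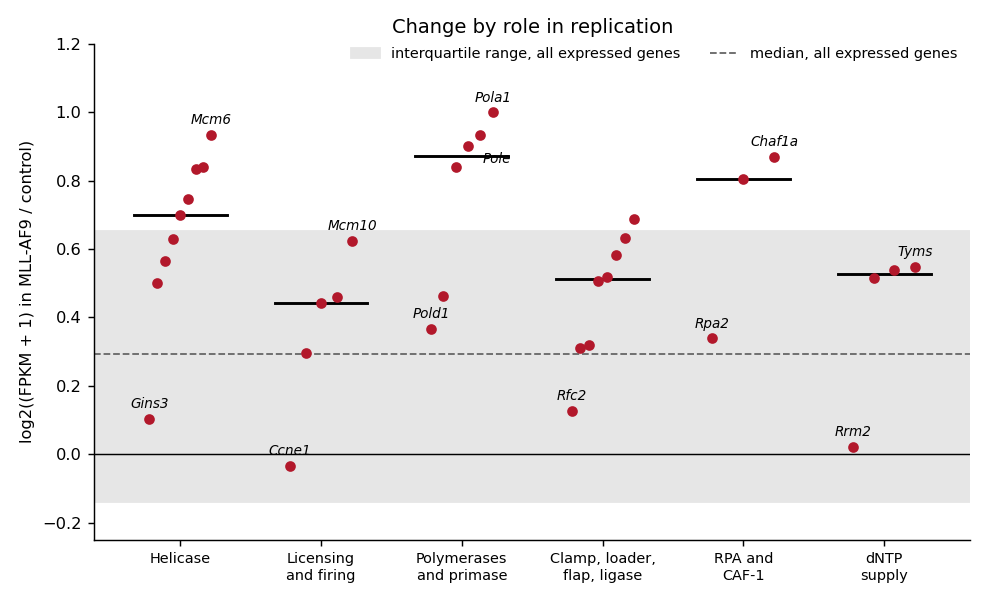
Log2 change after adding 1 to FPKM, MLL-AF9 over control, for each of the 35 genes, by role, with the median of each role as a black bar. The dashed line and grey band give the median (0.29) and interquartile range of 11538 expressed genes. Polymerase and primase genes reach highest, with a median of 0.87, and Gins3, Ccne1, Rfc2 and Rrm2 lie below the dashed line.

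The order of the levels was much the same in both groups. Across the 35 members the Spearman correlation of FPKM in MLL-AF9 with FPKM in control was 0.98, a description of genes measured in the same pooled libraries. Pcna ranked first in both groups. Rrm2 held rank 5 in MLL-AF9 cells and rank 2 in control cells, and Mcm6 held rank 2 in MLL-AF9 cells and rank 5 in control cells. No spread is known, so it cannot be said which neighbours in these orders differ.

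Other genes of the pathway leaned the same way, with few calls. Of 118 matched genes in 4 further lists, 100 were higher in MLL-AF9 cells and 86 had a log2 change above the median of expressed genes, while 3 were called higher and 1 lower. The called genes were 3.39% of these lists, compared with 10.3% of expressed genes, and the higher ones 84.7%, compared with 68.7%. Among 40 other replication genes, 37 were higher and 1 was called. This was Orc3, an origin recognition subunit, which rose to 14.9 FPKM in MLL-AF9, against 8.30 FPKM in control cells (q = 0.0414, the authors' deposited table). Orc3 had a ratio of 1.80, smaller than those of several members that were not called. Top2a, the topoisomerase that untangles replicated DNA, had 140 FPKM in MLL-AF9 cells and 94.7 FPKM in control cells without a call.

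Among 37 other nucleotide supply genes, 28 were higher, 0 were called higher and 1 was called lower. The higher ones were 75.7% of the list, compared with 68.7% of expressed genes, and the called one 2.7%, compared with 10.3%. Samhd1, the phosphohydrolase that breaks down deoxynucleotides, fell to 61.2 FPKM in MLL-AF9, against 195 FPKM in control cells, and was thus 3.19-fold lower (q = 0.000487, the authors' deposited table).

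Among 22 E2F and G1/S regulators, 17 were higher, 1 was called higher and 0 lower, with a median log2 change of 0.27, below the 0.29 of expressed genes. The 1 call is 4.55% of the list, compared with the 5.13% of expressed genes called higher. The called gene was Cdk6, a cyclin D kinase that releases E2F from the Rb protein, which rose to 98.5 FPKM in MLL-AF9, against 3.22 FPKM in control cells, a ratio of 30.6 (q = 1.26e-11, the authors' deposited table). Among activating E2F factors, E2f1 had 31.9 FPKM in MLL-AF9 cells and 17.9 FPKM in control cells, whereas E2f2 had 26.4 FPKM in MLL-AF9 cells and 60.8 FPKM in control cells (q = 0.138, the authors' deposited table). The repressive E2f7 had 4.95 against 3.71 FPKM and E2f8 had 44.6 against 32.0 FPKM. Ccne2, the second cyclin E, had 14.9 FPKM in MLL-AF9 cells and 9.68 FPKM in control cells, a ratio of 1.54 beside the 0.975 of Ccne1.

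Among 19 genes of replication stress and the S-phase checkpoint, 18 were higher, with a median log2 change of 0.81, and 1 was called higher and 0 lower. This 1 gene is 5.26% of the list, compared with the 5.13% of expressed genes called higher. The called gene was Atr, the kinase that senses stalled forks, which rose to 10.1 FPKM in MLL-AF9, against 3.15 FPKM in control cells, a ratio of 3.19 (q = 0.0238, the authors' deposited table). For comparison, of 22 mitotic genes 18, or 81.8%, were higher, compared with 68.7% of expressed genes. None was called (0), compared with 10.3% of expressed genes. The median log2 change of the mitotic genes was 0.31, beside 0.29 for expressed genes, and 12 of the 22 lay above the latter. Mki67, a marker of cycling cells, stood at 109 FPKM in MLL-AF9 cells and 68.9 FPKM in control cells. Differences between these lists and the members were not tested.

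**Figure D4:**
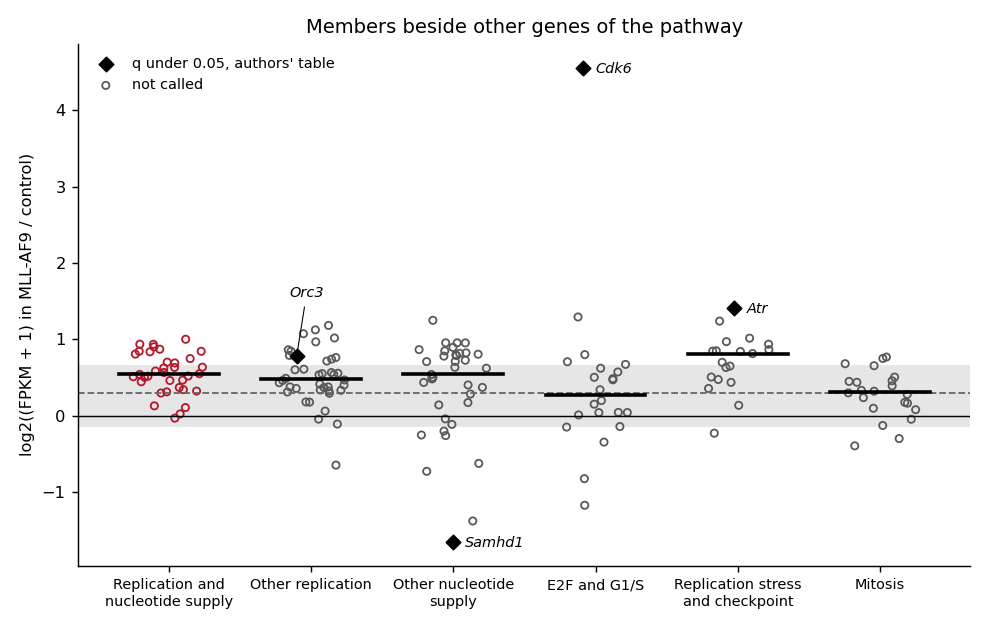
Log2 change after adding 1 to FPKM, MLL-AF9 over control, for the members, 4 further pathway lists and mitotic genes, with list medians as black bars, horizontal scatter for legibility, and the median and interquartile range of expressed genes as dashed line and grey band. Filled diamonds are the called genes: Orc3, Cdk6 and Atr higher, and Samhd1 lower. The members span a narrow range and include no called gene.

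Levels of cell type markers differed between the groups at the same time. Of 10 matched mature granulocyte markers 10 were lower in MLL-AF9 cells, and 9, or 90%, were called lower, compared with 5.2% of expressed genes. Their summed level was 22152 FPKM in MLL-AF9 cells and 195854 FPKM in control cells, led by S100a8, Ngp and Camp. Of 11 B lymphoid markers 11 were lower and 10 were called lower (summed 38.9 against 706 FPKM, led in control cells by Cd79b, Cd79a and Vpreb3). Of 11 erythroid markers 10 were lower and 7 were called lower (69.4 against 269 FPKM, led in control cells by Car2 and Car1). Of 7 T and NK markers 7 were lower and 7 were called lower (4.69 against 68.0 FPKM, led in control cells by Cd3d and Lck). Among the erythroid markers Tfrc, the transferrin receptor that dividing cells also carry, stood higher without a call, at 50.7 FPKM in MLL-AF9 cells and 26.8 FPKM in control cells. Without it the erythroid sums were 18.7 FPKM in MLL-AF9 cells and 242 FPKM in control cells. Of 8 monocyte and macrophage markers 4 were lower and 3 were called lower, the complement genes C1qa, C1qb and C1qc. The sum of this list was 567 FPKM in MLL-AF9 cells and 495 FPKM in control cells, and its most abundant genes, Ly86, Ccr2 and Cd68, were not called. Of 9 progenitor markers 7 were higher, and 4, or 44.4%, were called higher, compared with 5.13% of expressed genes. The called ones were Cd34, Flt3, Myb and Sox4. The sum of this list was 4639 FPKM in MLL-AF9 cells and 2858 FPKM in control cells, and it consists mostly of Elane, Prtn3, Ctsg and Mpo, none of which was called. The markers of this list that were not higher were Mpo and Kit. Mpo stood at 627 FPKM in MLL-AF9 cells and 927 FPKM in control cells, and Kit at 12.9 against 14.3 FPKM. None of these markers was listed at 0 in either group. In bulk RNA, fewer cells of a type and less RNA per cell cannot be told apart, nor can a shift toward dividing progenitors be told apart from more replication transcript per dividing cell. Of all summed FPKM, S100a9 included at its listed values, the granulocyte markers made up 2.84% in MLL-AF9 cells and 23.0% in control cells. When both groups were scaled to equal sums without them and without S100a9, the members' median log2 change was 0.37 beside 0.12 for expressed genes, and 31 of 35 members were higher. That scaling was chosen after the data were seen and moves all genes by nearly the same amount. The part of cell composition in the members' values was not tested.

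The library kit does not keep strand, so reads of genes that overlap a member cannot be separated from its own. In RefSeq's GRCm38 annotation 9 of the 35 members overlap a protein-coding gene, among them Fen1 with Tmem258, Rfc4 with Eif4a2, Rpa1 with Smyd4 and Tk1 with Afmid.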

How the data were processed

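PolyA RNA of 3 MLL-AF9 and 3 control samples was analysed; the input and 5hmC samples were not, since no gene positions on their build, mm9, were at hand. Per the submitters' processing notes, TopHat 1.4.1 and Cufflinks 1.3.0 were among the tools; neither their roles nor their settings are stated there. The authors deposited 1 FPKM value per group, a unit inferred from these tools and the values. The deposited p-value and q-value stem from a comparison made by the authors with a test that the file headers do not name. The labels' protocols speak of duplicates, so the samples behind each value are uncertain. Since no values per sample were given, the planned limma fit was not run and no new test was made.

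Symbols were matched first, then unique RefSeq synonyms. S100a9, with 0 in the control column beside a p-value of 1, was left out of the expressed genes and of the scaling to equal sums. The granulocyte shares of all summed FPKM kept it in the totals. Every matched member is named; of further lists, called genes, E2f1, E2f2, E2f7, E2f8, Ccne2, Top2a, Mki67 and leading markers. From the further lists, 1 gene named by this rule is not reported here. Mpo, Kit, Rpa3, the polymerase subunits outside the list and the called monocyte and progenitor markers were named after their values were seen. Members and lists were chosen with earlier results of these data known. Adjustment, scaling and medians were tested on simulated data. Alternatives were other pseudocounts, filters, thresholds and scalings. Software was pandas 2.3.3 and numpy 2.4.6 under Python 3.11.15, with scipy 1.17.1 for the self-test and matplotlib 3.10.9 for plots.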

Additional observations from a re-analysis of the deposited data

How the results depend on the processing

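The number of called members stayed at 0 in both directions without a filter, with a mean of at least 5 FPKM, with q under 0.01 or 0.1, with symbols alone and with p-values adjusted anew. The number of higher members was 34 with pseudocounts of 0.1 and 5, 32 under quantile normalization, and 31 under median centring, upper-quartile scaling and equal sums without granulocyte markers. Gins3, Rrm2 and Ccne1 were lower under all 4 scalings, and Rfc2 under all but quantile normalization. The median log2 change of the members, 0.55 as deposited, was 0.25 under median centring, 0.39 under quantile normalization, 0.39 under upper-quartile scaling and 0.37 with equal sums, the last chosen after seeing the data. Median centring takes off the 0.29 of expressed genes by construction. Under the other 3 scalings the median of expressed genes was 0.082, 0.14 and 0.12 in the same order. The members' median stayed 0.24 to 0.31 above that of expressed genes. Single-member values moved by 0.1 or more in 138 of 210 cases. Leaving out samples was not run. No paired analysis was possible because the table holds 1 pooled value per group. Depth is unknown, so its limits cannot be given.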
